A study of Mus musculus with 6 samples.

Results

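A set of genes that mark the projection neurons of the striatum were followed in RNA captured on tagged ribosomes of mouse cerebral cortex. They are Ppp1r1b, Adcy5, Pde10a, Adora2a, Gpr6, Gng7, Rgs9, Rxrg and Syndig1l, taken by symbol as 9 of the 32531 gene rows of the count files. Peptide and dopamine receptor genes were left out of the set. The mice were adults of the Htr4-EGFP/Rpl10a line ES1299, in which Htr4, a serotonin receptor gene, drives an EGFP-tagged copy of the ribosomal protein Rpl10a. In translating ribosome affinity purification (TRAP), tissue is homogenised and tagged polysomes are pulled down with antibodies against EGFP. The captured RNA (IP, n = 3 libraries) was compared with RNA labelled as input of the same tissue and line (n = 3). Both groups carry the tag and neither was treated. The labels name pyramidal neurons as the subject, give no sex, and do not say whether replicates were separate animals, so p-values measure only the spread between these libraries, which may be technical.

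Striatal projection neurons turn dopamine and adenosine signals into changes of cyclic AMP. In the direct pathway the D1 receptor, and in the indirect pathway the adenosine receptor encoded by Adora2a, act through the G protein Golf on adenylyl cyclase 5. Cyclic AMP activates protein kinase A, which turns DARPP-32, the product of Ppp1r1b, into an inhibitor of protein phosphatase 1. Phosphodiesterase 10A degrades the cyclic AMP, and RGS proteins shorten signalling by the opposing Gi and Go proteins. These genes mark the striatum by their high levels there, and several, among them Ppp1r1b and Pde10a, are also expressed by neurons of the cortex.

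Of the 9 genes, 7 rose and 1 fell in IP, and 1 did not pass the test (edgeR's quasi-likelihood F test, with p-values adjusted by Benjamini-Hochberg over all tested genes and a threshold of 0.05). All 9 passed the filter on low counts. Over all 16506 tested genes, 44.8% were called, 21.3% as higher and 23.4% as lower in IP. The median log2 fold change of the 9 genes was 1.46, against -0.02 over all tested genes. The IP and input libraries did not overlap at any of the 9 genes, with IP above input at 8 and below at 1. Across all tested genes the libraries did not overlap at 56.1%, with IP above at 26.5% and below at 29.5%. Rgs9 was the gene that fell and Rxrg the one that did not pass.

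Values are CPM, reads on genes scaled to library size with TMM factors, and a level compared between genes is CPM per kilobase of merged exons in GENCODE M21. A fold change is IP over input. Gene reads numbered 53147173 to 67559533 in IP libraries and 37696125 to 52360452 in input libraries. The fewest reads behind any value of the 9 genes were 319 in IP and 53 in input, both for Gpr6. In bulk RNA, fewer cells of a type and less RNA per cell cannot be told apart. All IP libraries carried one index and all input libraries another, so index and group cannot be told apart either. The labelled tissue was checked against its markers: the 10 cortical excitatory neuron genes summed to 4605 to 6272 CPM in IP and 4393 to 5003 CPM in input, with 4 called higher and 2 lower. All 29 astrocyte, oligodendrocyte, precursor and microglial genes fell, with a sum of 982 to 1182 CPM in IP and 5374 to 6121 CPM in input. Of 10 interneuron genes, 4 rose and 0 fell, with a sum of 1706 to 2238 CPM in IP and 1349 to 1483 CPM in input. Among lists for neighbouring tissue, 5 of 8 hippocampal genes rose and 0 fell, with a sum of 320.5 to 506 CPM in IP and 162 to 228 CPM in input. Of 5 tested thalamic genes 2 rose and 2 fell, and of 3 tested choroid plexus genes 2 rose and 1 fell, with Gbx2 of the thalamic list at 0 in all libraries and Folr1 of the choroid plexus list at 0 in IP. Of 7 tested endothelial and mural genes 6 fell, with Tek at 0 in IP. The part of these cells and tissues in the results below was not tested.

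The sequence before the annotated start is shown for 2 genes that rose and the 1 that fell, as context for the values that follow. RefSeq (GRCm38.p6) promoter entries matched 6 of the 9 genes: Adcy5, Gng7, Gpr6, Pde10a, Rgs9 and Rxrg. Shown are the 250 bases before the start of Gng7 and Gpr6, which rose, and of Rgs9, which fell, each read 5′ to 3′ on the minus strand. Gng7 has a further entry that is not shown. Capitals mark matches on either strand to the cyclic AMP response element core TGACG, the Sp1 GC box GGGCGG and the TATA box TATAAA.
Gng7, chr10:81014926-81015175: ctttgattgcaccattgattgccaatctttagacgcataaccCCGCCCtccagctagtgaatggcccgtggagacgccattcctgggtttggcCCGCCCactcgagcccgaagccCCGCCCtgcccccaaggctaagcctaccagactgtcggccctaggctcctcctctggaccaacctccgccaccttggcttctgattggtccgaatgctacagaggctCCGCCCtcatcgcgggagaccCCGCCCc
Gpr6, chr10:41072291-41072540: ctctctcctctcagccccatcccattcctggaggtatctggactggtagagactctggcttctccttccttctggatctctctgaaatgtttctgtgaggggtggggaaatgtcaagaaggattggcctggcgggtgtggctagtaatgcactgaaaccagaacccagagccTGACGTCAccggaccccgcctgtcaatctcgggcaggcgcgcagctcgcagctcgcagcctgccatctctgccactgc
Rgs9, chr11:109298182-109298431: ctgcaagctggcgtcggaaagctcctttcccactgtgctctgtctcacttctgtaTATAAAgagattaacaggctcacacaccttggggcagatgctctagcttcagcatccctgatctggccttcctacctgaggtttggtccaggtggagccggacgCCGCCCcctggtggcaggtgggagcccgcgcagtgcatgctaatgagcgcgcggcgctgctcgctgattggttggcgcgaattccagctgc

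The Gng7 window shown holds 5 GC boxes, and 32.7% of all 32851 RefSeq windows of this length hold at least 1. The other Gng7 window, not shown, holds 0 GC boxes and 1 match to the core TGACG. The Gpr6 window holds the full palindrome TGACGTCA, 78 bases before the start, which contains the core on both strands. This palindrome is in 1.55% of all windows and the core in 17.8%. The Rgs9 window holds 1 GC box and 1 TATA box, and 12.4% of all windows hold a TATA box. Also searched, and not capitalised, were the E-box CANNTG, with 4 matches in the Rgs9 window and a match in 66.2% of all windows, and the retinoid half-site AGGTCA, in 14.02% of all windows, in an Rxrg window that is not shown and in none of these 3. Adcy5 and Pde10a also rose and their windows are not shown. The Adcy5 window holds 4 GC boxes and the Pde10a windows 1 and 0, and none of these holds the core TGACG or a TATA box. A letter match is a description and not a binding site, and its relation to the direction of change was not tested.

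Ppp1r1b, Adcy5 and Pde10a, which encode the effectors of the cyclic AMP pathway, rose by 1.53 to 2.91-fold. Ppp1r1b (chr11:98348404-98357796, GRCm38, plus strand), the gene of DARPP-32, had 234, 174 and 196 CPM in IP replicates 1, 2 and 3, against 66.4, 78.6 and 62.4 CPM in input replicates 1, 2 and 3. Every IP library was far above every input library. Ppp1r1b averaged 201 ± 30.4 CPM in IP and 69.2 ± 8.43 CPM in input (SD, n = 3 each), a log2 fold change of 1.54 (SE 0.13, adjusted p = 3.3e-06). Its exons share 460 bases with 1700003D09Rik on the opposite strand, and the strand setting of the count is not given in the sources used here.

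Pde10a (chr17:8525372-8986648, plus strand), the phosphodiesterase gene of the set, had 389, 368 and 343 CPM in IP and 189.9, 204 and 182 CPM in input. It varied least of the 9 genes within IP, with a coefficient of variation of 6.33%, and its log2 fold change was 0.94 (SE 0.09, adjusted p = 8.7e-06). Adcy5 (chr16:35154877-35305738, plus strand), the main striatal adenylyl cyclase, had 89.6, 76.3 and 68.8 CPM in IP and 54.5, 52.8 and 46.0 CPM in input. The groups were close but separate, with a log2 fold change of 0.61 (SE 0.12, adjusted p = 0.0016). Of 7 other adenylyl cyclase genes tested, 2 rose, 3 fell and 2 did not pass. Adcy8 and Adcy2 rose, with log2 fold changes of 0.46 and 0.40. Adcy1, a calcium-stimulated cyclase gene like Adcy8, fell, with 489.7 ± 85.9 CPM in IP and 735 ± 90.7 CPM in input (log2 fold change -0.58, adjusted p = 0.003). Of 16 other phosphodiesterase genes tested, 4 rose, 4 fell and 8 did not pass. For both families, the shares over all tested genes were 21.3% higher and 23.4% lower. Pde1b rose (log2 fold change 0.66), while Pde8a fell to 0.568 ± 0.323 CPM in IP, against 9.72 ± 0.439 CPM in input.

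**Figure D1:**
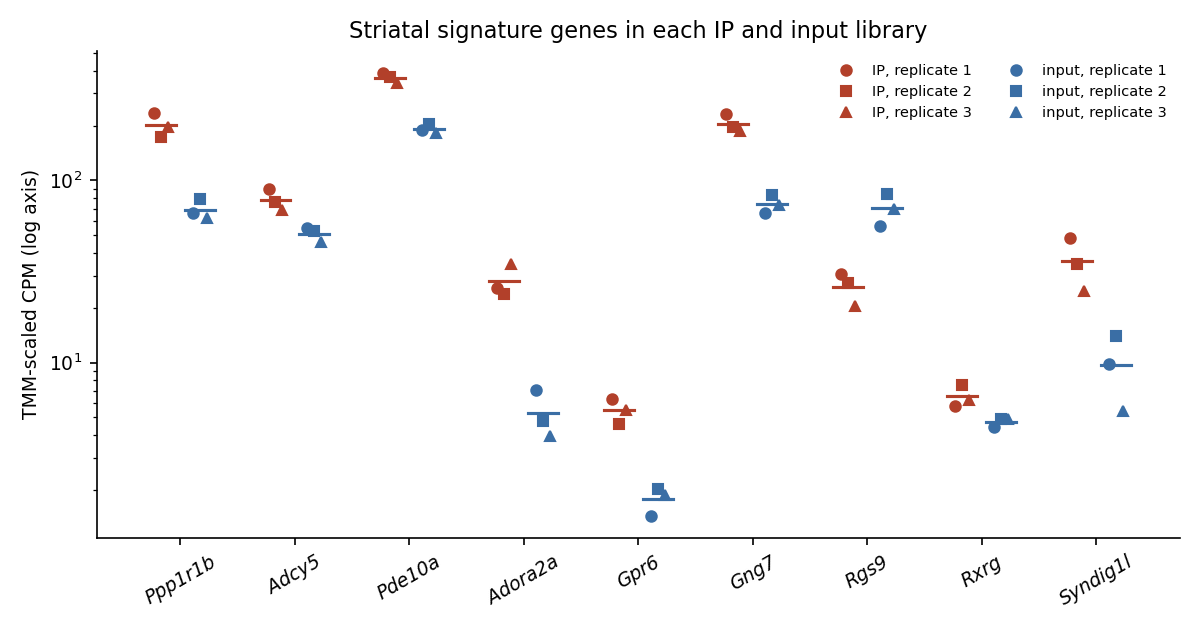
Level of each gene in each library, as TMM-scaled CPM on a log axis, with IP in red to the left of input in blue; symbols mark the replicate and horizontal lines the mean of 3 libraries. IP libraries lie above input libraries at 8 genes and below them at Rgs9, and the gap is smallest at Rxrg.

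Adora2a and Gpr6, the receptor genes of the set, mark the indirect pathway, and both rose. Adora2a (chr10:75316877-75334784, plus strand), a Golf-coupled adenosine receptor gene, had 25.6, 23.9 and 34.8 CPM in IP, against 7.11, 4.75 and 3.95 CPM in input. The groups were wide apart. Adora2a rose 5.36-fold, the largest change of the 9 genes (log2 fold change 2.42, SE 0.24, adjusted p = 1.2e-05), and ranked 62nd among all tested genes by log2 fold change. Adora1, the inhibitory adenosine receptor gene, rose by 0.41 on the log2 scale (adjusted p = 0.0088). Adora2b had 5, 0 and 0 reads in IP and 22, 56 and 59 reads in input, and fell (adjusted p = 0.0048).

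Gpr6 (chr10:41069977-41072285, minus strand) encodes an orphan receptor that raises cyclic AMP without added ligand. It had 6.35, 4.57 and 5.51 CPM in IP and 1.44, 2.03 and 1.88 CPM in input. The groups were well apart at this low level, with a log2 fold change of 1.61 (SE 0.30, adjusted p = 0.0011). Its closest relatives did not pass: Gpr3 had 7.43 ± 1.11 CPM in IP and 7.47 ± 2.02 CPM in input (log2 fold change -0.01, adjusted p = 0.98), and Gpr12 had 28.8 ± 2.47 CPM in IP and 24.0 ± 1.17 CPM in input (log2 fold change 0.26, adjusted p = 0.12).

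Gng7 and Rgs9, which act on the G proteins, went in opposite directions. Gng7 (chr10:80948624-81014945, minus strand), the gamma subunit that pairs with Golf in striatal neurons, had 232, 196 and 187 CPM in IP and 66.4, 83.2 and 73.4 CPM in input. All IP libraries lay far above all input libraries (log2 fold change 1.46, SE 0.11, adjusted p = 2.3e-06). The Golf alpha subunit gene Gnal rose, with 679.5 ± 99.4 CPM in IP and 475 ± 6.41 CPM in input (log2 fold change 0.52, adjusted p = 0.0015). The log2 ratio of Gng7 to Gnal within a library was -1.73 ± 0.05 in IP and -2.68 ± 0.15 in input (SD, n = 3 each). Of 9 other gamma subunit genes tested, 4 rose, 3 fell and 2 did not pass, where 21.3% of all tested genes rose and 23.4% fell. The log2 fold change was 1.03 for Gng3 and 0.54 for Gng2, which rose, and -1.02 for Gng12, which fell.

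Rgs9 (chr11:109225355-109298129, minus strand), whose striatal form speeds the shut-off of Gi and Go signals, had 30.5, 27.4 and 20.4 CPM in IP, against 56.0, 84.7 and 70.0 CPM in input. The highest IP library lay well under the lowest input library. Rgs9 averaged 26.1 ± 5.17 CPM in IP and 70.2 ± 14.3 CPM in input, a log2 fold change of -1.43 (SE 0.18, adjusted p = 6.3e-05). Of all tested genes, 15.6% had a log2 fold change at or below this. The log2 ratio of Rgs9 to Ppp1r1b in CPM, which is not corrected for the genes' lengths, was -2.96 ± 0.30 in IP and 0.01 ± 0.22 in input. Gene pairs were chosen with the values known, so these ratios are descriptions. An exact permutation test over 6 such ratios gave p of 0.1 to 0.3 (Benjamini-Hochberg adjusted p 0.12 to 0.3), and none passed. With 3 libraries per group this test cannot give a p under 0.1, so it could not decide. Of the partners of the Rgs9 protein, Gnb5, its obligate beta subunit, rose (log2 fold change 0.90, adjusted p = 4.4e-05). Rgs7bp, its membrane anchor, had 753 ± 27.5 CPM in IP and 795 ± 59.8 CPM in input and did not pass (adjusted p = 0.48). Among its relatives the log2 fold change was 0.40 for Rgs7, which rose, -0.75 for Rgs6, which fell, and -0.85 for Rgs11, which did not pass (adjusted p = 0.095).

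**Figure D2:**
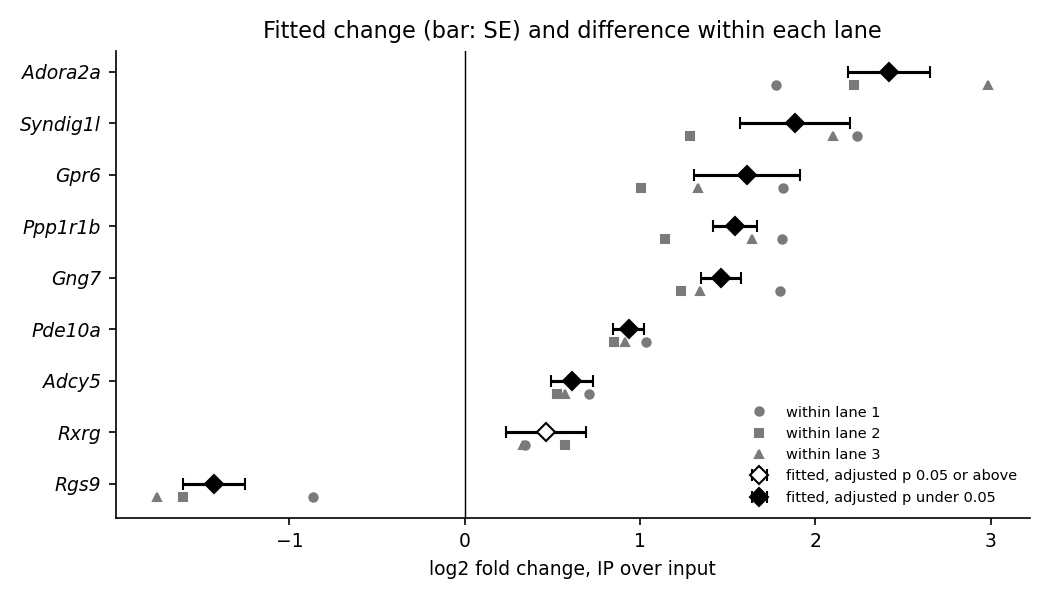
Log2 fold change of IP over input for each gene. Diamonds are the fitted values with their SE, open where the adjusted p was 0.05 or above, and grey symbols are the difference of log2(CPM + 0.5) between the IP and input library of each lane. All 3 lanes lie on the same side of 0 at each of the 9 genes, which follows from IP and input libraries not overlapping. Rgs9 is the only gene left of 0.

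Syndig1l and Rxrg complete the set. Syndig1l (chr12:84677277-84698831, minus strand), a membrane protein gene related to the AMPA receptor-associated gene Syndig1, had 48.3, 34.7 and 24.8 CPM in IP and 9.86, 13.9 and 5.41 CPM in input. It was the most variable of the 9 genes, with a coefficient of variation of 32.8% in IP and 43.8% in input, and rose by a log2 fold change of 1.88 (SE 0.31, adjusted p = 0.00051). Its exons share 177 bases with an opposite-strand gene, Gm48573. Syndig1 itself did not pass, at 0.25 on the log2 scale (adjusted p = 0.20).

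Rxrg (chr1:167598384-167639623, plus strand), a retinoid X receptor gene, had 5.78, 7.53 and 6.27 CPM in IP and 4.44, 4.89 and 4.87 CPM in input. The libraries did not overlap, but the log2 fold change of 0.46 (SE 0.23) did not pass (adjusted p = 0.12), nor under any of 16 alternatives (adjusted p 0.067 to 0.30). Its relatives Rxrb and Rxra rose, with log2 fold changes of 0.70 and 0.37. Of 15 other retinoid pathway genes, 4 rose and 5 fell, where 21.3% of all tested genes rose and 23.4% fell. The 15 had a median log2 fold change of -0.90. Rarb and Rara, both retinoic acid receptor genes, rose with log2 fold changes of 1.16 and 0.77. Crabp1, a retinoic acid binding protein gene, rose with 2.57, and Cyp26a1, which encodes a retinoic acid degrading enzyme, with 3.40 from 16 to 172 reads per IP library and 1 to 7 per input library. IP replicate 3 held 172 of those Cyp26a1 reads, against 16 and 25 in IP replicates 1 and 2. Aldh1a2, which encodes a retinoic acid synthesis enzyme, fell to 1.53 ± 1.12 CPM in IP, against 11.8 ± 1.53 CPM in input (log2 fold change -2.93, adjusted p = 0.00051).

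Per kilobase of exon, the order of the 9 levels in IP was Ppp1r1b (68.8 ± 10.4), Gng7 (54.1 ± 6.28), Pde10a (28.5 ± 1.81), Syndig1l (11.7 ± 3.83), Adcy5 (10.9 ± 1.46), Adora2a (9.18 ± 1.91), Rgs9 (4.09 ± 0.809), Gpr6 (3.07 ± 0.498) and Rxrg (2.84 ± 0.393), in CPM per kilobase. The libraries of Ppp1r1b and Gng7 overlapped, as did those of Syndig1l, Adcy5 and Adora2a in neighbouring pairs, and those of Rgs9, Gpr6 and Rxrg. In input, Ppp1r1b (23.6 ± 2.88), Gng7 (19.6 ± 2.22) and Pde10a (14.9 ± 0.859) also led. Rgs9 stood below Syndig1l, Adcy5 and Adora2a in IP, and above all of them in input at 11.0 ± 2.25 CPM per kilobase. Adora2a stood above Rgs9, Gpr6 and Rxrg in IP, and in input, at 1.72 ± 0.536, above Gpr6 alone, with libraries that overlapped those of Rxrg. Per kilobase of the longest transcript instead, Pde10a stood above Gng7 in input, at 24.7 against 21.7. By that measure Rxrg also stood just above Gpr6 in IP, at 3.09 against 3.07.

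Within a group the genes did not vary as one. IP replicate 1 had the highest IP value of 7 of the 9 genes, the exceptions being Adora2a, highest in IP replicate 3, and Rxrg, highest in IP replicate 2. In input, replicate 2 was highest at 7 genes, and Adora2a and Adcy5 were highest in replicate 1. Adora2a had its highest library elsewhere than most of the 9 genes in both groups, with deviations of -0.11, -0.21 and 0.32 in IP replicates 1 to 3 and of 0.44, -0.10 and -0.34 in input replicates 1 to 3, on the log2(CPM + 0.5) scale. Drd2, another indirect pathway gene, had 46.4, 30.8 and 45.1 CPM in IP and 10.3, 12.3 and 7.06 CPM in input. The log2 ratio of Adora2a to Drd2 was -0.53 ± 0.28 in IP and -0.91 ± 0.42 in input (SD, n = 3 each).

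**Figure D3:**
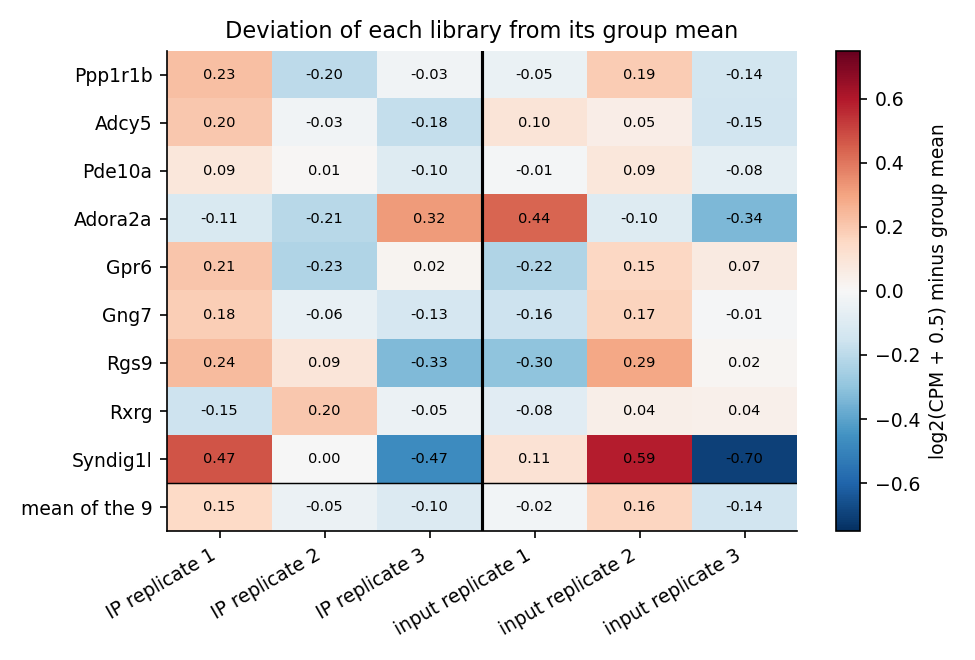
Deviation of each library from the mean of its group on the log2(CPM + 0.5) scale, for each gene and for the mean of the 9 genes; red is above and blue below the group mean. Syndig1l spans the widest range, from -0.70 to 0.59, and Adora2a is high in IP replicate 3 and input replicate 1, where the mean of the 9 is -0.10 and -0.02.

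The genes whose within-group deviations were most like the mean of the 9 were Unc79, Gpr108, Bhlhb9, Szrd1 and 1110004E09Rik, with Pearson r of 0.987 to 0.997 over the 6 libraries, among 10313 genes searched. None of them is in the striatal list below. Of 30 other striatal genes searched, 6 had r over 0.8, or 20.0%, against 3.03% of all genes searched, and their median r was 0.61 against -0.03. These points share the same 6 libraries and their depth, and the values are a description.

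Other genes of striatal projection neurons mostly went the same way. Of 34 such genes, 25 rose and 1 fell, where 21.3% of all tested genes rose and 23.4% fell. The 34 had a median log2 fold change of 0.87, and 8 did not pass. With the sequencing lane as a block, 27 rose and 2 fell, and without IP replicate 1 also 2 fell. Isl1, a LIM-homeodomain transcription factor gene, rose most, with 11.6, 3.80 and 8.04 CPM in IP and 1.42, 0.716 and 1.15 CPM in input (log2 fold change 2.85). Tac1, the substance P precursor gene, rose with 2.69, and Penk, the enkephalin precursor gene, with 2.45. Arpp21, a cyclic AMP-regulated phosphoprotein gene and the most abundant of the list, rose by 0.39. Eya1, a transcriptional coactivator gene, fell to 7.83 ± 3.61 CPM in IP, against 23.7 ± 2.16 CPM in input (log2 fold change -1.60, adjusted p = 0.0011).

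Listed marker genes of both striatal output pathways were read in IP and in input. All 6 indirect pathway markers rose, with a median log2 fold change of 1.83: besides Adora2a, Gpr6, Penk and Drd2 (2.05), these were Gpr52, an orphan receptor gene (1.01), and Sp9, a transcription factor gene (0.88). Their summed level was 479.8 to 669.5 CPM in IP and 96.1 to 127 CPM in input. Of 8 direct pathway markers, 5 rose and 1 fell, with a median of 1.32. Over all tested genes, 21.3% rose and 23.4% fell. Isl1, Tac1, Slc35d3 (2.07), Pdyn, the dynorphin precursor gene (1.54), and Drd1, the D1 receptor gene (1.10), rose, and Eya1 fell. Chrm4, the M4 muscarinic receptor gene, had 0.39 (adjusted p = 0.064). Ebf1, a transcription factor gene, had -0.90 (adjusted p = 0.087, and 0.048 with the lane as a block). The summed level of the direct markers was 199 to 358 CPM in IP and 94.6 to 104 CPM in input, and none of the markers of either pathway was at 0. No test compared the pathways with each other. The part of other cell types or tissue in these values was not tested.

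Downstream of the receptors, 22 of 33 partner genes of DARPP-32 and the cyclic AMP pathway rose and 2 fell. Of all tested genes, 21.3% rose and 23.4% fell. The 33 partner genes had a median log2 fold change of 0.41. Without input replicate 3, 1 of them fell. Prkaca, the protein kinase A catalytic subunit gene, rose with 426 ± 41.8 CPM in IP and 215 ± 8.25 CPM in input (log2 fold change 0.98, adjusted p = 9.1e-06). Ppp1r2, an inhibitor of protein phosphatase 1 like DARPP-32, rose with 0.98 and Gnb5 with 0.90. Ppp3r1, the calcineurin regulatory subunit gene and the most abundant of the list, rose with 0.40. Those that fell were Creb1, the cyclic AMP-responsive transcription factor gene (-0.63), and Arpp19, a phosphatase regulator gene (-0.33). Gnal, Arpp21 and Ptpn5 stand in both this list and the striatal one. Rgs7bp and Gnal were singled out above after their values were seen.

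The closest relatives of the 9 genes went both ways. Of 44 tested paralogs of the 9 genes, 14 rose and 12 fell, where 21.3% of all tested genes rose and 23.4% fell. The 44 had a median log2 fold change of 0.18, and 18 did not pass. Without input replicate 2, 8 rose. The 2 relatives of Ppp1r1b did not pass: Ppp1r1a had 47.3 ± 7.84 CPM in IP and 36.1 ± 5.62 CPM in input (adjusted p = 0.056, and 0.018 with the lane as a block), and Ppp1r1c had under 60 reads in each library. Pde1b and Pde7b of this list also stand in the striatal one.

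**Figure D4:**
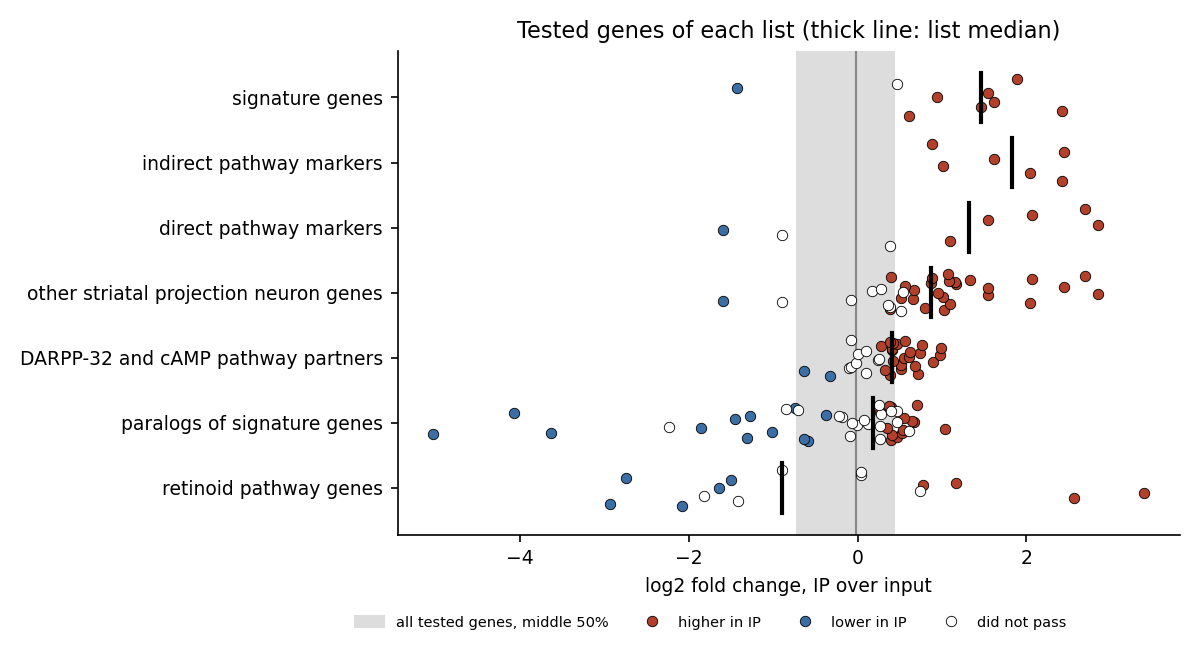
Log2 fold change of IP over input for the tested genes of each list; red genes rose, blue genes fell and open genes did not pass, thick lines are list medians, and the grey band holds the middle 50% of all tested genes with their median as a line. The signature genes and both pathway lists have medians of 1.32 or more, the paralogs 0.18 and the retinoid genes -0.90. Some genes stand in several lists.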

How the data were processed

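Each library came as one deposited table of whole-number counts, reads assigned to each gene symbol, not normalized by the authors. Reads were aligned with STAR 2.0.0e to mm10 and HTSeq was used, per the submitters' processing notes. No source used here gives the HTSeq version, strand setting or annotation. Rows naming no gene (43.7% to 46.3% of listed reads in IP, 47.6% to 49.5% in input) stayed out. Their make-up differed by group. Ambiguous reads were 1.77% to 1.91% of listed reads in IP and 8.12% to 9.83% in input. Reads on no feature were 8.60% to 8.92% in IP and 16.7% to 18.1% in input. Reads not aligned uniquely were 32.9% to 35.7% in IP and 21.1% to 23.3% in input. The part of this difference in the fold changes was not tested. Libraries of a group differed beyond sampling noise (chi-square per degree of freedom 22.0 to 65.2). IP and input were compared in R 4.3.3 by the quasi-likelihood F test of edgeR 4.0.16. It followed filterByExpr and TMM scaling, with group as the only term. The procedure was checked on simulated data with 200 changed genes, as many set to rise as to fall. Far more genes were called in the real data, so the check does not cover so broad a change. SE is derived from the test statistic. The floor of 3 reads lies at 0.0444 to 0.0796 CPM, computed from gene reads without the TMM factors. Floors cover counting error only.

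The replicate number equals the lane in the labels. Deviations of same-numbered IP and input libraries correlated at 0.043 to 0.087, against -0.057 to 0.0014 otherwise, so a lane block was run as an alternative. Deviations cancel within a group, so these ranges are not independent of each other. Members, lists and the genes named by rule (the 3 called genes of a list that rose most, the 2 that fell most, the most abundant, all pathway markers and any paralog) were chosen with earlier results of these data known. A gene that this rule names in the retinoid list is not reported here. Symbols matched GENCODE M21 for 14469 of 16506 tested genes.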

Additional observations from a re-analysis of the deposited data

How the results depend on the processing

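Other tools were DESeq2 1.42.0 and limma-voom (limma 3.58.1); other scalings were RLE, library totals and TMM computed without ribosomal proteins; other filters were none and a minimum of 1 CPM in 3 libraries. Further fits had the replicate block (sequencing lane), a length and GC offset with and without that block, or left out each library in turn. The signature genes stayed at 7 higher and 1 lower in IP under all 16, each gene on its side of the threshold and in its direction. Log2 fold changes ran from 2.22 to 2.71 for Adora2a, 1.19 to 1.64 for Ppp1r1b and -1.55 to -1.27 for Rgs9. Ppp1r1b was lowest with the length and GC offset and the replicate block. Striatal list genes that fell numbered 2 in limma-voom and 2 with the replicate block, and 1 to 2 over the fits that left out a library. DARPP-32 partners that fell numbered 1 to 2 and paralogs that rose 8 to 14 over those fits, the lowest without input replicate 3 and input replicate 2; the cause was not tested. Over all genes, 3523 rose and 3864 fell, against 3607 and 3966 with the replicate block. The share of calls that were higher in IP was 47.7% with TMM, 55.3% with library totals, 56.5% with the length and GC offset and 56.2% with that offset and the replicate block. Fits with the offset covered only the 14469 genes matched to GENCODE M21, against 16506 with TMM and library totals, so these shares are over unlike gene sets. Depth limits Gpr6 most, with 53 to 102 reads per input library.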

Other observations

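Most, but not all, tested genes on a list for cholinergic neurons were also higher in IP. These neurons include the striatal interneurons that release acetylcholine. Of 6 tested genes, 5 rose and 0 fell, with a median log2 fold change of 1.61 and a summed level over 7 genes that was higher in IP than in input of the same lane by 1.13 to 1.68 on the log2 scale. Over all tested genes in the same fit, 21.3% rose and 23.4% fell. With the lane as a block, 4 of the 6 cholinergic genes rose. Slc18a3, the vesicular acetylcholine transporter gene, had 66, 166 and 120 reads in IP replicates 1 to 3 and 15, 32 and 14 reads in input replicates 1 to 3 (log2 fold change 1.99, adjusted p = 0.014). Slc5a7, the choline transporter gene, averaged 5.29 ± 2.29 CPM in IP and 2.26 ± 0.550 CPM in input (SD, n = 3 each; adjusted p = 0.021). Chat, the acetylcholine synthesis enzyme, had 11, 111 and 90 reads in IP and 29, 26 and 39 reads in input and did not pass (adjusted p = 0.57). Isl1 is in this list and in the striatal one.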
